A study of Drosophila melanogaster with 12 samples.

Results

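On the large autosomal arms, 525 places carried a Saft (CG11247) peak in a single one of 4 deposited peak lists and no Phaser (CG7372) peak. They were 525 of 1756 autosomal Saft regions (29.9%), and of 1986 on all sequences. Peaks of the 4 Saft lists were merged where they overlapped by 1 bp or more on 2L, 2R, 3L and 3R. A merged region was kept if 1 list alone held a peak in it and if it overlapped no peak of either Phaser list. These are called single-list regions here, and the 670 autosomal regions with a peak in all 4 lists are called constant regions. Members were thus chosen by the authors' peak calls in these lists, so their presence in 1 list and their strength are descriptions and carry no test.

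Binding was mapped by anti-FLAG ChIP-seq in Schneider S2 cells, an embryo-derived Drosophila melanogaster line. Saft was mapped in clones 9C and 4H, whose genotype is given as OsTir1, Saft_FLAG-AID, and Phaser in clone 8D, given as OsTir1, Phaser_FLAG-AID. The endogenous reading frame was tagged on all copies with FLAG joined to an auxin-inducible degron, OsTir1 is the plant receptor that such a degron needs, and every group was left undepleted. Each line is 1 clone with 2 biological replicates, and of the 12 samples the 6 ChIP libraries have a peak list while the 6 inputs have none here.

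The labels call both proteins transcription factors, and the series is on silencers, DNA elements that lower the transcription of genes. A ChIP-seq peak marks a stretch where immunoprecipitated fragments pile up above the background, and a sharp binding site gives a mound as wide as the fragments around it. Small peaks beside a large mound and small isolated peaks are both common near the threshold of a peak caller. A list of peaks does not give the signal of a library where no peak was called, so absence from a list is not absence of binding.

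The lists held 1389 and 1515 peaks for replicates 1 and 2 of clone 9C, and 1212 and 1265 for replicates 1 and 2 of clone 4H. On the large autosomal arms they held 1223, 1336, 1046 and 1118 in the same order. The total read depth of the libraries is unknown. The number of ChIP reads piled up at each summit was recovered from the authors' fold enrichment and −log10 p, and came out whole in 100% of peaks.

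Single-list regions were narrow and close to the calling threshold. Their median width was 184 bp, against 302.5 bp for the 276 regions in 2 or 3 lists and 1363 bp for the 463 constant regions, all without Phaser. A region of several lists runs to the outermost edges of its peaks, so its width is not that of a single peak. All autosomal peaks, taken singly, had a median width of 326 and 318 bp in the 9C lists. In the 4H lists it was 336 and 345 bp. The shortest peak in every list was 150 bp, and 311 of the 525 (59.2%) were under 200 bp. Most of them were thus hardly wider than the narrowest peak listed. Their fold enrichment over the peak caller's background, the authors' value at the summit, had a median of 2.80 and ran from 2.00 to 3.83. The highest value of each region had a median of 3.13 in regions of 2 or 3 lists and 12.1 in constant regions.

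In −log10 q, the peak caller's adjusted significance, the single-list regions had a median of 3.36 and a range of 1.36 to 8.06. A q of 0.05 is 1.30 on this scale, and 468 of the 525 (89.1%) were under 5. Regions in 2 or 3 lists had a median of 4.71 and constant regions one of 75, again by the highest peak in each. Within their own list, single-list peaks were mostly in the weaker part, with a median of 17.8% of autosomal peaks below them. Of the 525, 7 had a −log10 q above the median of their list.

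Behind a single-list summit stood 42 to 107 ChIP reads, with a median of 58, over a median background of 19.3 reads. In constant regions without Phaser, the median summit held 256 and 258 reads in clone 9C and 237 and 247 reads in clone 4H. The highest count at any summit was alike in all lists, at 288 and 290 in 9C and 288 and 287 in 4H. How far counts near that upper value follow strength was not tested. Single-list summits thus rested on far fewer reads than constant ones. The plot of width against strength shows these regions in the lower left corner, running into those of 2 or 3 lists without a gap.

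**Figure D1:**
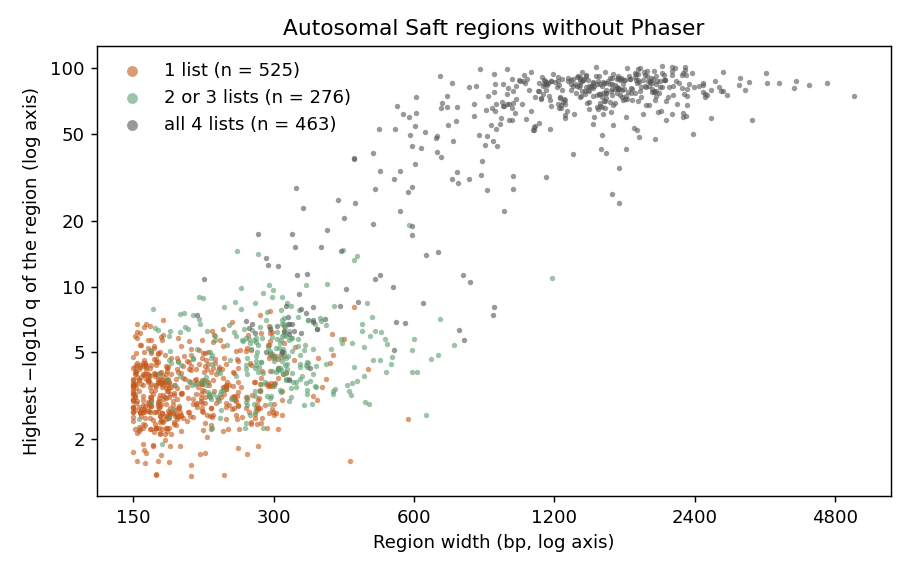
Width of each autosomal Saft region without Phaser (bp, log axis) against the highest −log10 q of its peaks (log axis), for 525 regions in 1 list, 276 in 2 or 3 lists and 463 in all 4. Each point is 1 region. Single-list regions lie between 150 and 582 bp and reach 8.06, while constant regions have medians of 1363 bp and 75.

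The 525 regions were spread over the 4 libraries unevenly. Clone 9C gave 125 in replicate 1 and 192 in replicate 2, and clone 4H gave 86 in replicate 1 and 122 in replicate 2. These were 10.2% (95% Wilson interval 8.65 to 12.0) and 14.4% (12.6 to 16.4) of the autosomal peaks in the 9C lists, and 8.22% (6.71 to 10.0) and 10.9% (9.22 to 12.9) in the 4H lists. The longest list had the most and the shortest the fewest. The intervals cover counting error over peaks only.

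Between the clones, the number per library averaged 158.5 ± 47.4 in 9C and 104 ± 25.5 in 4H (SD, n = 2 each). The ratio of geometric means was 1.51 (exact permutation test over libraries, two-sided, p = 0.33, adjusted p = 0.67 over 2 tests). With 2 libraries in each clone, 0.33 is the smallest p possible. Without replicate 1 of 9C the ratio was 2.28. Limited to the 1000 strongest autosomal peaks of each list, the numbers were 82 and 85 in 9C and 90 and 114 in 4H, and the ratio turned to 0.824 (exact permutation p = 0.33).

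The strength of single-list peaks was alike in the 4 libraries. Median fold enrichment was 2.82 and 2.77 in the 9C libraries and 2.78 and 2.82 in the 4H libraries. Median −log10 q was 3.46 and 3.35 in 9C and 3.75 and 3.05 in 4H. Median width was 182 and 193 bp in 9C and 177 and 183 bp in 4H. These are the authors' values at summits and are given side by side, with no test, since the call itself bounds them from below.

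What set the libraries apart was where their single-list regions lay. Over all 4 libraries, 134 (25.5%, 95% Wilson interval 22.0 to 29.4) were within 1 kb of a constant region, edge to edge, and are called shoulders here. One kb is the upper end of the sonicated fragments, which the labels give as 200 to 1000 bp. A further 92 (17.5%) were at 1 to 10 kb, and 299 (57.0%) were over 10 kb away and are called separate sites. The median distance over all 525 was 20778 bp. To the nearest other Saft region of any kind the median was 6386 bp, and 159 (30.3%) were within 1 kb of a peak of another list. Separate thus means away from constant regions only, and some separate sites lay beside regions of fewer lists.

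Shoulders made up 62 of 122 single-list regions in replicate 2 of clone 4H (50.8%, 42.1 to 59.5) and 0 of 86 in replicate 1 of that clone. For 0 of 86 the upper Wilson limit is 4.28%, and the limit of 3 counts is 3.49%. In clone 9C they were 18 of 125 in replicate 1 (14.4%, 9.31 to 21.6) and 54 of 192 in replicate 2 (28.1%, 22.2 to 34.9). The highest and the lowest share thus came from the same clone. The share in replicate 1 of 9C was 25.4% when replicate 2 of 9C was left out and single-list regions were taken from the other 3 lists, while replicate 1 of 4H stayed at 3.64% or less whichever Saft library was left out.

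Separate sites over 10 kb away showed the reverse order. They were 77 of 86 (89.5%) in replicate 1 of 4H and 30 of 122 (24.6%) in replicate 2 of 4H. In clone 9C they were 90 of 125 (72.0%) in replicate 1 and 102 of 192 (53.1%) in replicate 2. The median distance to a constant region was 46281 and 14383.5 bp in the 9C libraries and 67003.5 and 908.5 bp in the 4H libraries.

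Between the clones no difference in the share of shoulders was seen. It averaged 21.3% ± 9.71 in 9C and 25.4% ± 35.9 in 4H (SD, n = 2 each), a difference of -4.15 percentage points (exact permutation test over libraries, two-sided, p = 1, adjusted p = 1 over 2 tests). The spread inside clone 4H exceeded the difference between clones. With a library left out the difference ran from -28.5 points without replicate 1 of 4H to 30.1 points without replicate 2 of 4H, so it has no fixed sign.

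**Figure D2:**
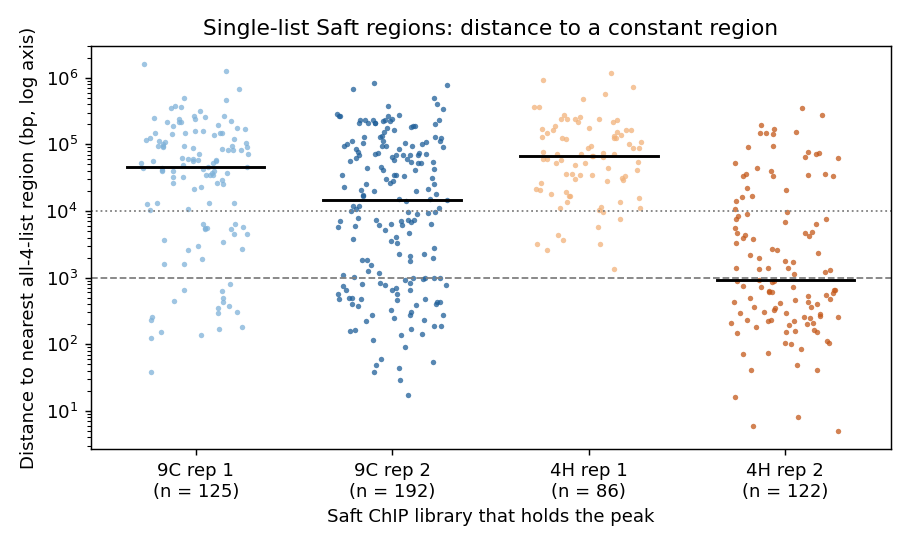
Distance from each single-list region to the nearest region in all 4 lists (bp, log axis), by the library that holds the peak. Points are regions, bars are medians, and lines mark 1 kb (dashed) and 10 kb (dotted). Replicate 1 of clone 4H has no point below 1 kb, and replicate 2 of that clone has its median at 908.5 bp.

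**Figure D3:**
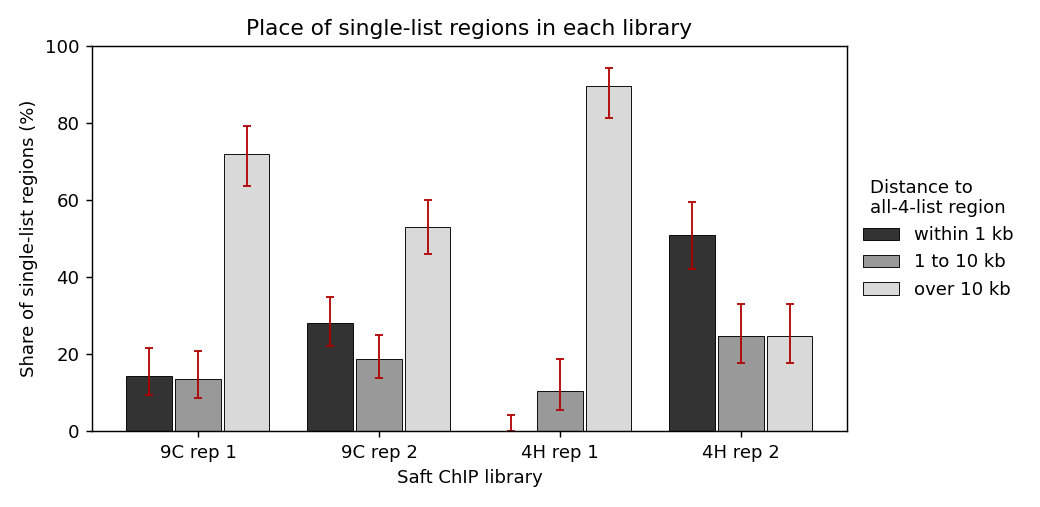
Share (%) of single-list regions of each library within 1 kb, at 1 to 10 kb and over 10 kb from a constant region, with 95% Wilson intervals over regions. The share within 1 kb is 14.4% and 28.1% in the 9C libraries, and 0% and 50.8% in the 4H libraries.

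Other Saft regions that were not constant also lay beside constant ones, given here with no test. Against the 25.5% of single-list regions, those in 2 or 3 lists without Phaser were within 1 kb of a constant region in 34.4% of 276 (Wilson interval 29.1 to 40.2). Regions in 2 or 3 lists with Phaser were within 1 kb in 2.73% of 183. Of all 1086 autosomal regions absent from at least 1 list, the 525 members included, 21.9% were within 1 kb, and of the 561 that are not members 18.5%. Constant regions without Phaser had another constant region within 1 kb in 16.4% of 463. The 102 single-list regions that did overlap Phaser, and are not members, were within 1 kb in 3.92% (Wilson interval 1.54 to 9.65). No test was made between these classes, which differ in width, and standing beside a constant region is not particular to single-list regions.

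The share of shoulders in regions of 2 or 3 lists without Phaser also varied with the lists that held them, given here with no test. Among pairs, the 40 regions shared by the second replicates of both clones, and by them alone, were shoulders in 67.5%. The 21 of replicate 1 of 9C with replicate 2 of 4H were shoulders in 47.6%, and the 71 of both 9C replicates in 32.4%. Pairs with replicate 1 of 4H held few. They were 1 of 18 with the other 4H replicate, 1 of 14 with replicate 1 of 9C and 3 of 23 with replicate 2 of 9C. Among triples, shoulders were 25 of 53 in the regions that replicate 1 of 4H lacked. They were 0 of 11 in those that replicate 2 of 9C lacked, 2 of 16 in those that replicate 2 of 4H lacked and 3 of 9 in those that replicate 1 of 9C lacked.

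Peaks at constant regions differed between the libraries too. Width was taken here as the span from the first to the last peak edge of a list in the region. Without Phaser its median was 1226 and 1226 bp in the 9C libraries, and 929 and 1209 bp in the 4H libraries. A list held several peaks at 14.7% and 16.0% of these regions in 9C, and at 12.5% and 12.1% in 4H. Replicate 1 of 4H, with no shoulder, had the widest of the 4 spans at 5.67% of all constant regions, those with Phaser included. The 9C libraries had it at 25.8% and 37.0%, and the other 4H replicate at 31.0%. Since a constant region runs to the outermost edge of any list, a small peak close beside a narrow main peak can lie inside it.

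Small peaks beside a large one were therefore also counted within each list alone, without regard to the other lists. This count was chosen after the distances had been seen. It took autosomal peaks within 1 kb of a peak of the same list with at least 3 times their −log10 q. There were 173 and 230 in the 9C lists, or 14.1% and 17.2% of peaks, and 92 and 212 in the 4H lists, or 8.80% and 19.0%. Replicate 1 of 4H thus had side peaks, though fewest.

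The fate of these side peaks differed between the lists. In replicate 1 of 4H, 82 of 92 (89.1%) lay inside a constant region, 10 in a region of 2 or 3 lists and 0 in a single-list region. In replicate 2 of 4H, 84 of 212 (39.6%) lay inside a constant region and 59 (27.8%) were single-list regions. In clone 9C the numbers inside constant regions were 95 of 173 and 99 of 230, and those in single-list regions 17 and 46. Where peaks had to share 50% of their width to be joined, shoulders, overlapping ones included, were 41.2% and 46.2% in 9C and 32.0% and 64.8% in 4H. Replicate 1 of 4H was the lowest under this rule too.

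The 134 shoulders lay close to the constant regions and on both sides of them. Their median distance to the outer edge was 305 bp, 98 were within 500 bp and 20 within 100 bp. To the nearest peak of their own list in that region the median gap was 373 bp, with a range of 45 to 1283 bp. On the higher-coordinate side lay 68 and on the lower-coordinate side 66. They stood beside 111 constant regions, 16.6% of the 670. Of these regions 93 had 1 shoulder, 14 had a pair and 4 had 3 or more, and 12 had shoulders on both flanks.

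Regions with a shoulder were wide and were nearly all without Phaser. Without Phaser, 108 of 463 constant regions (23.3%) had one, and with Phaser 3 of 207 (1.45%). Constant regions with Phaser were also narrower, with a median width of 395 bp against 1363 bp without, and width and Phaser were not separated. Among constant regions without Phaser, those beside a shoulder had a median width of 1640 bp, and the other 355 one of 1249 bp. Their median −log10 q, by the highest peak, was 79.0, against 72.3 for the others.

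The share with a shoulder was higher in each wider class. It was 3.77% of 53 regions up to 500 bp and 16.2% of 99 regions of 500 to 1000 bp. It was 22.9% of 118 regions of 1000 to 1500 bp, 30.3% of 122 regions of 1500 to 2000 bp and 36.6% of 71 wider ones. The Wilson interval was 1.04 to 12.8 in the narrowest class and 26.4 to 48.2 in the widest, and covers counting error over regions only. Shoulders of all libraries were pooled here, 18 and 54 from 9C and 0 and 62 from 4H. The classes were not compared within each library. Width and strength rise together in these lists, and their parts were not separated.

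**Figure D4:**
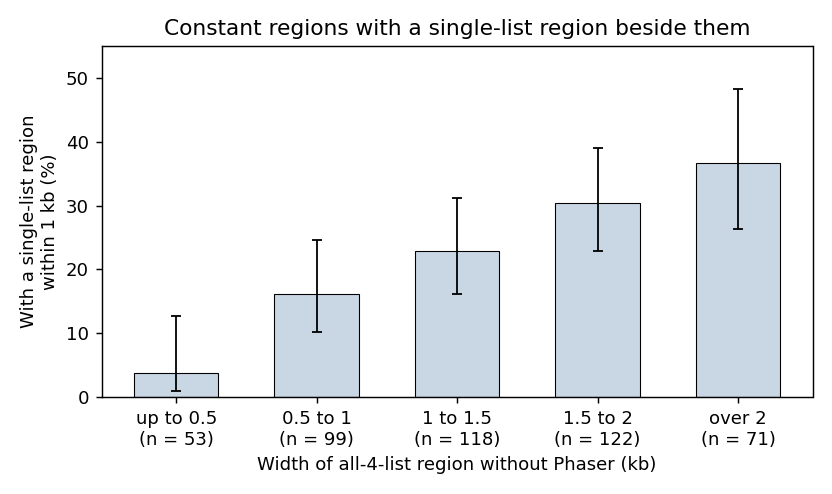
Share (%) of constant Saft regions without Phaser that have a single-list region within 1 kb, by width class (kb), with 95% Wilson intervals over regions. The share is 3.77% in the narrowest class and 36.6% in the widest.

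Pooled over the libraries, shoulders and separate sites were alike as peaks. Median width was 185.5 bp in the 134 shoulders and 186 bp in the 299 separate sites. Within libraries the order of width varied. In shoulders and separate sites it was 208.5 and 179 bp in replicate 1 of 9C, and 185.5 and 208 bp in replicate 2 of 9C. In replicate 2 of 4H it was 181.5 and 179 bp, and replicate 1 of 4H had no shoulder. Median fold enrichment was 2.73 in shoulders and 2.80 in separate sites, and median −log10 q was 3.03 and 3.50. Median summit reads were 57 in shoulders and 59 in separate sites. In width and strength the shoulders and the separate sites overlapped over most of their range. Within libraries the order of strength was not constant, with a median −log10 q of 3.03 in shoulders and 2.92 in separate sites of replicate 2 of 4H, and of 2.89 and 3.52 in those of replicate 2 of 9C.

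At the constant region beside a shoulder, the library that listed the shoulder did not always have the highest −log10 q. In replicate 2 of 4H it had the highest −log10 q of the 4 libraries at 31 of 62 shoulders and the widest span of peaks at 30. Over all constant regions, those with Phaser included, it was highest at 41.2% and widest at 31.0%. In replicate 2 of 9C it was highest at 6 of 54 shoulders and lowest at 21, and widest at 18, against highest at 19.1% and widest at 37.0% of all constant regions. In replicate 1 of 9C it was highest at 3 of 18 and widest at 3, against 24.9% and 25.8% of all constant regions. The −log10 q also depends on the background. For peaks in constant regions without Phaser its median was 19.8 and 22.4 reads in 9C and 20.8 and 18.4 in 4H. The ranking was not separated from this background. Shoulders and all constant regions are also unlike sets here. Nearly all shoulders stood beside regions without Phaser, and a region with several shoulders counts more than once.

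Single-list regions were spread over the arms much as constant regions were. The arms 2L, 2R, 3L and 3R held 19.4%, 22.5%, 25.9% and 32.2% of the 525, and 18.7%, 21.9%, 27.3% and 32.1% of the 670 constant regions. Shoulders were 23.5%, 21.2%, 30.1% and 26.0% of the single-list regions on these arms. The order of the arms was the same for single-list and constant regions, and differed for the share of shoulders.

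Another single-list region lay within 1 kb of 36 (6.86%) and within 10 kb of 149 (28.4%) of them. The densest 50 kb stretch held 9, on 2R from 19660967 to 19692369 (dm3), of which 7 were in replicate 2 of 4H and 2 in replicate 2 of 9C. They were interspersed with 5 constant regions and 4 regions of 2 or 3 lists, and 5 of the 9 were shoulders. Their summits held 42 to 58 ChIP reads. At the constant region between 18.4 and 21.0 kb from its start, summits held 270 to 274 reads in the 4 libraries. These counts are close to the highest of any summit in the lists, 287 to 290.

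The next densest stretches, 3 with 6 single-list regions each, also lay among constant regions. On 3R from 10308789 to 10326127, 6 single-list regions, 5 of them in replicate 2 of 4H and 1 in replicate 2 of 9C, were all shoulders of 2 constant regions. On 3L from 4273706 to 4310490, 6 lay among 3 constant regions, with 4 shoulders. On 3R from 22977266 to 23026300, 6 lay among 4 constant regions, with 3 shoulders, and were 3 in replicate 2 of 9C and 3 in replicate 2 of 4H. Replicate 1 of 4H had no single-list region in any of these 4 stretches.

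**Figure D5:**
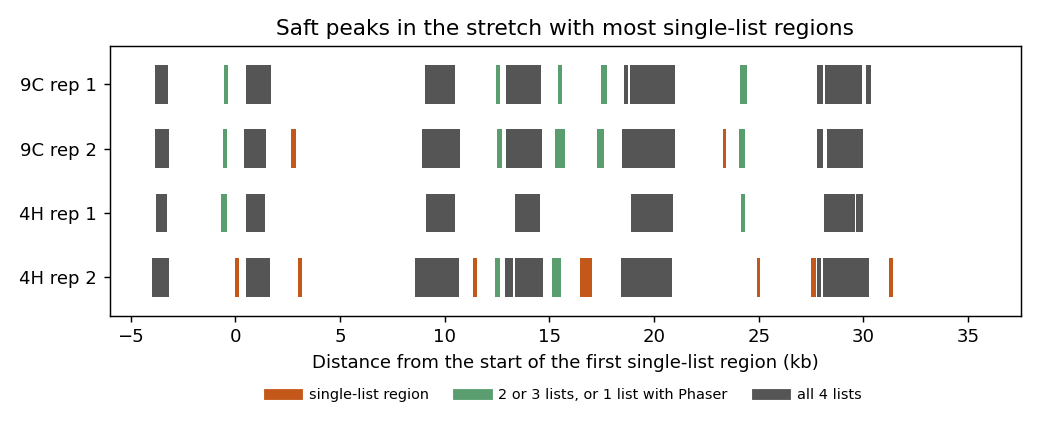
Saft peaks of the 4 libraries along the 31.4 kb stretch with the most single-list regions, as distance (kb) from the start of the first one. Boxes are peaks, coloured by whether their region is single-list, in 2 or 3 lists, or in all 4. The 9 single-list peaks, 7 of them in replicate 2 of clone 4H, stand between wide regions that all 4 libraries share.

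The strongest single-list regions by −log10 q were chosen as 3 per library. In replicate 1 of 9C they lay on 3R at 7124377 to 7124620 (6.86), 8141055 to 8141217 (6.59) and 7130902 to 7131122 (6.25), with 69, 74 and 69 summit reads. In replicate 2 of 9C they lay on 3R at 113051 to 113345 (7.76) and on 3L at 21702849 to 21703129 (7.40) and 1356912 to 1357085 (7.0), with 88, 78 and 74 reads. Of these 6 regions none was a shoulder, and their distances ran from 7345 to 822099 bp.

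In replicate 1 of 4H the strongest were on 2L, at 18152413 to 18152565 (6.77), 12975204 to 12975437 (6.37) and 10728894 to 10729046 (5.84), with 94, 78 and 75 reads. The last was nearest to a constant region, at 3195 bp. In replicate 2 of 4H they were on 3L at 11704961 to 11705405 (8.06), on 2R at 13504231 to 13504523 (6.63) and on 3L at 4310193 to 4310490 (6.19), with 74, 65 and 61 reads. The first and the last of these were shoulders, at 211 and 400 bp, so that the strongest single-list peak of all stood beside a constant region.

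The widest single-list region of each library was 401 bp in replicate 1 of 9C (3L, 9369799 to 9370199) and 402 bp in replicate 2 of 9C (3R, 17122450 to 17122851). It was 477 bp in replicate 1 of 4H (3R, 12061168 to 12061644) and 582 bp in replicate 2 of 4H (2R, 19677407 to 19677988). The last lay in the densest stretch, 250 bp from a peak of another list, and had a −log10 q of 2.48. None of these 4 was a shoulder of a constant region.

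The single-list region nearest to a constant region lay 38 bp away in replicate 1 of 9C (2R, 3202242 to 3202427) and 17 bp away in replicate 2 of 9C (3L, 19553903 to 19554170). It lay 1341 bp away in replicate 1 of 4H (3R, 23051848 to 23052005) and 5 bp away in replicate 2 of 4H (3R, 5202450 to 5202629). The farthest lay 1597090 bp away in replicate 1 of 9C (2R, 185437 to 185596) and 822099 bp away in replicate 2 of 9C (3R, 113051 to 113345). In clone 4H the farthest lay 1193211 bp away in replicate 1 (2L, 22261160 to 22261408) and 350091 bp away in replicate 2 (3R, 585198 to 585353).

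Part of the single-list regions lay close to the limits of the rule. Just inside, the smallest gaps to a peak of another Saft list were 5 bp (3R, 5202450 to 5202629), 6 bp (2L, 4217250 to 4217406) and 8 bp (3L, 4273706 to 4273960), all in replicate 2 of 4H. Just outside, the smallest overlaps that joined peaks of exactly 2 lists were 23 bp (3R, 9781250 to 9781602), 29 bp (3L, 1820084 to 1820524) and 41 bp (3L, 3278520 to 3278921). Gaps of 100 bp or less were found at 23 of the 525 and of 500 bp or less at 122 (23.2%). The median overlap that joined the peaks of 2-list regions was 159 bp.

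The rule left out the 102 of 627 regions in 1 list that overlapped a Phaser peak, so distance to Phaser was bounded in advance. For the 525 single-list regions that were kept, the median distance to a Phaser peak was 10197 bp. It was 12136.5 bp for regions in 2 or 3 lists and 13413 bp for constant regions, both also without Phaser. Within 1 kb lay 33 of the 525 (6.29%). The nearest, both in replicate 2 of 9C, were 10 bp (2L, 7809672 to 7809851) and 13 bp (3R, 5368032 to 5368326) from a Phaser peak. Shoulders were farther from Phaser than separate sites, with a median of 14719 bp against 9463 bp, given with no test.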

How the data were processed

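ChIP-seq peaks of FLAG-tagged Saft and Phaser were compared by position in dm3. Cells were fixed in 1% formaldehyde for 10 min and chromatin was sonicated to 200 to 1000 bp, per the labels' protocols. MACS2 (2.1.2.1) is the peak caller among the tools in the submitters' processing notes, beside bedtools (2.27.1), the aligner Bowtie (1.2.2) and Trim Galore (0.6.2), without settings. Every ChIP library has its own deposited narrowPeak file, so replicates were not pooled. Whether the inputs were controls is not given in the sources used here. At each summit the authors' file gives fold enrichment, a linear ratio that MACS2 takes after scaling the ChIP pileup and adding 1 to pileup and background, and −log10 p and −log10 q.

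Members, lists and tests were chosen with earlier results of these data known. All 525 members were described and none was filtered out. Named regions were, in each library, the 3 strongest members, the widest, the nearest to and the farthest from a constant region, and those at the limits of the rule. Distances run edge to edge. Libraries were compared by exact permutation, and p-values measure the spread between these libraries, adjusted by Benjamini-Hochberg over 2 tests. Summit reads were recovered from the fold and −log10 p, using MACS2's formulas, with a tolerance of 0.03 reads. With a scaling factor set wrong on purpose, 6.48% to 7.92% of peaks came out whole. The merging and the recovery were checked on simulated lists. Wilson intervals cover counting error only. No dm3 sequence or annotation was used. The tools were pandas 2.3.3, scipy 1.17.1 and numpy 2.4.6 under Python 3.11.15, with plots by matplotlib 3.10.9.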

Additional observations from a re-analysis of the deposited data

Results flagged for a closer look

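Single-list Saft regions without Phaser also occurred outside the large autosomal arms, in data that no comparison above uses, and are given for sequences with over 3 of them, the limit for a count of 0. The X held 48, beside 118 regions in all 4 lists. They were 10 and 17 in clone 9C and 15 and 6 in clone 4H, with a median width of 180.5 bp and a median fold enrichment of 2.94. Their −log10 q had a median of 3.44 and reached 9.66, above the 8.06 of the autosomal single-list regions. Of the 48, 6 (12.5%) were within 1 kb of a constant region, 0 and 2 in the 9C libraries and 2 and 2 in the 4H libraries. The heterochromatic scaffolds 2RHet and 3RHet held 5 each, with −log10 q up to 4.22 and 3.83. They were not tested against any control list.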

How the results depend on the processing

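Of 66 alternative values of 5 results, 59 kept their direction and stayed within the spread between libraries or, for the number of regions, within 1.5 times. For the share of shoulders that spread (SD over libraries) was 21.6 points, a wide limit around 25.5%. Shares of 46.7%, where peaks had to share 50% of their width, and of 7.11%, where gaps were joined, both fell within it. The count of 59 thus does not show that this share is stable. No result passed a threshold, and the tests between clones cannot pass 0.05 with 2 libraries each. Where peaks had to share 50% of their width, there were 835 single-list regions with a median width of 197 bp, since a stricter rule joins fewer peaks. Among the 1000 strongest peaks of each list the median width was also 197 bp, and the ratio of 9C to 4H numbers reversed to 0.824. Leaving out each library in turn gave 494 to 594 regions, median widths of 184 to 192 bp, shoulder shares of 22.9% to 32.6% and ratios of 1.23 to 2.28. The difference in shoulder share, 9C minus 4H, then ran from -28.5 to 30.1 points. It was positive without replicate 1 of 9C (5.51) and without replicate 2 of 4H (30.1). Joining peaks across gaps of up to 500 bp left 394 regions, of which 7.11% were shoulders, as that rule absorbs those nearest. Clones share replicate numbers, but same-numbered deviations of log2 fold did not go together over 670 constant regions (correlation -0.0012). That value covers constant regions only, and pairing by number at weaker peaks was not tested. In both clones replicate 2 had more single-list regions than replicate 1 (192 against 125 in 9C, 122 against 86 in 4H). Its share of shoulders was also higher in both (28.1% against 14.4% in 9C, 50.8% against 0% in 4H). Permuting clones within replicate numbers (the replicate block) left the ratio at 1.51, with exact p = 0.5, and the difference at -4.15 points, with exact p = 1. Unknown depth limits every comparison of numbers.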
